A study of Mus musculus with 108 samples.

Results

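The 38 genes described here encode enzymes and regulators of fatty acid and sterol synthesis in the mouse liver. They were chosen by name for their known roles, with no measured value in the rule, but with earlier results of these data known. All 38 were found among 26089 genes with a curated RefSeq transcript on chromosomes 1 to 19 and X. They comprise 7 genes of fatty acid synthesis, 6 of elongation and desaturation, 6 of triglyceride assembly and lipid droplets, 13 of the mevalonate and sterol pathway and 6 regulators. Chromatin immunoprecipitation and sequencing (ChIP-seq) was done for 4 modifications of histone H3, H3K4me3, H3K27ac, H3K4me1 and H3K27me3, in livers of female C57BL/6 mice that had been fixed in formalin and embedded in paraffin (FFPE). The groups compared were mice on the standard diet at 3 months (SD 3m, 8 mice, 30 libraries), mice on the standard diet at 12 months (SD 12m, 8 mice, 29 libraries) and mice at 12 months under 30% caloric restriction begun at 3 months of age (CR 12m, 9 mice, 29 libraries). The SD 6m group was not analysed here. Where 3 values follow each other with no group named, they are in the order SD 3m, SD 12m, CR 12m. The libraries of a group had been merged before chromatin states were assigned, so each group was 1 map with no replicates, no test across mice could be made, and every difference below is a difference between merged maps. Whole liver was used, so a change in the share of a cell type and a change of a mark within cells cannot be told apart.

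The liver makes fatty acids from citrate carried out of the mitochondria: ATP citrate lyase gives acetyl-CoA, acetyl-CoA carboxylases give malonyl-CoA, and fatty acid synthase builds the chain, which is then elongated, desaturated and esterified to triglyceride. The mevalonate pathway takes acetyl-CoA to isoprenoid units, squalene and cholesterol. Both branches are transcribed under the control of the sterol regulatory element-binding proteins (SREBPs), which leave the endoplasmic reticulum with their escort SCAP unless INSIG proteins retain them, and the fatty acid branch also answers to the carbohydrate-sensing factor ChREBP.

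The maps give each 200 bp bin of the genome 1 of 8 states. State names follow the study, and the marks given are those that define each. State 1 is an active transcription start site (TSS) with H3K4me3 and H3K27ac, and state 2 is a flanking TSS that also carries H3K4me1. State 3 is an active enhancer with H3K27ac and H3K4me1, state 4 is the weaker active enhancer with H3K27ac, and state 5 is a poised enhancer with H3K4me1. State 6 is Polycomb-repressed chromatin with H3K27me3, and state 8 is quiescent chromatin with none of the marks. State 7 has weak H3K4me3 and minimal H3K27me3, is found on repeats and lamina-associated chromatin, and is labelled age-related in the study. States 1 and 2 are called the H3K4me3 states here, with the weak H3K4me3 of state 7 left out, and states 3 to 5 the enhancer states.

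Each merged map rested on a different number of H3K4me3 libraries, 7, 8 and 5 in the order above, and the read depth behind the labels is unknown. Among the 12663 genes with state 1 or 2 within 2 kb of the TSS in any group, called H3K4me3-marked genes below, the median number of such bins in the 21 bins around the TSS was 13 in the SD 3m map, 8 in the SD 12m map and 7 in the CR 12m map. A narrower H3K4me3 domain in both 12-month maps was thus found over these genes as a whole, and the part of library number or depth in it was not tested. Of 7 hepatocyte markers, 6 had state 1 or 2 within 2 kb in each group. The mean over the 7 was 7.86, 9.29 and 8 bins, so it was not lower in the 12-month maps. It joins opposite directions. Alb had 10, 9 and 2 bins and Cps1 13, 11 and 11, but Apoa1 had 3, 10 and 10 and Fgb 8, 11 and 11. The neuronal genes Pax6, Neurod1 and Syt1 were in state 6 at the TSS in all 3 maps. The other gene listed for lineages absent from liver, Myod1, was in states 8, 6 and 8. Of 5 macrophage markers, 3, 4 and 5 had no such bin, with a mean of 4, 1.4 and 0 bins, and the Kupffer cell gene Clec4f was at 0 bins in all 3 groups. The mean over 4 endothelial markers was 5.5, 4 and 2.5 bins, but single genes differed in direction, with 4, 10 and 3 bins at Kdr and 6, 2 and 7 at Stab2. The 4 cholangiocyte markers had a mean of 0.75, 0 and 2 bins, the last from 8 bins at Sox9, and the 4 stellate cell and 4 adipocyte markers were at 0 in every group. The part of other cell types in the results below was not tested.

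At the TSS bin, the synthesis genes were in the H3K4me3 states less often in the 12-month maps. In SD 3m, 28 of the 38 TSS bins were in state 1 or 2 and 10 in states 3 to 5. In SD 12m the numbers were 23 and 15, and in CR 12m they were 19 and 19. As shares, 73.7%, 60.5% and 50.0% of the genes were in state 1 or 2, against 40.1%, 34.7% and 30.7% of all genes and 82.5%, 71.5% and 63.2% of the H3K4me3-marked genes. The order of the 3 maps was the same in the 3 sets of genes. The sets are not alike, since 6 of the 38 genes had no bin in state 1 or 2 within 2 kb in any map. Such genes are left out of the marked set by its definition, so the 28, 23 and 19 genes all lie among the other 32. No TSS bin of the 38 was in states 6 to 8 in any group, where 41.8%, 41.7% and 41.1% of all genes were.

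**Figure D1:**
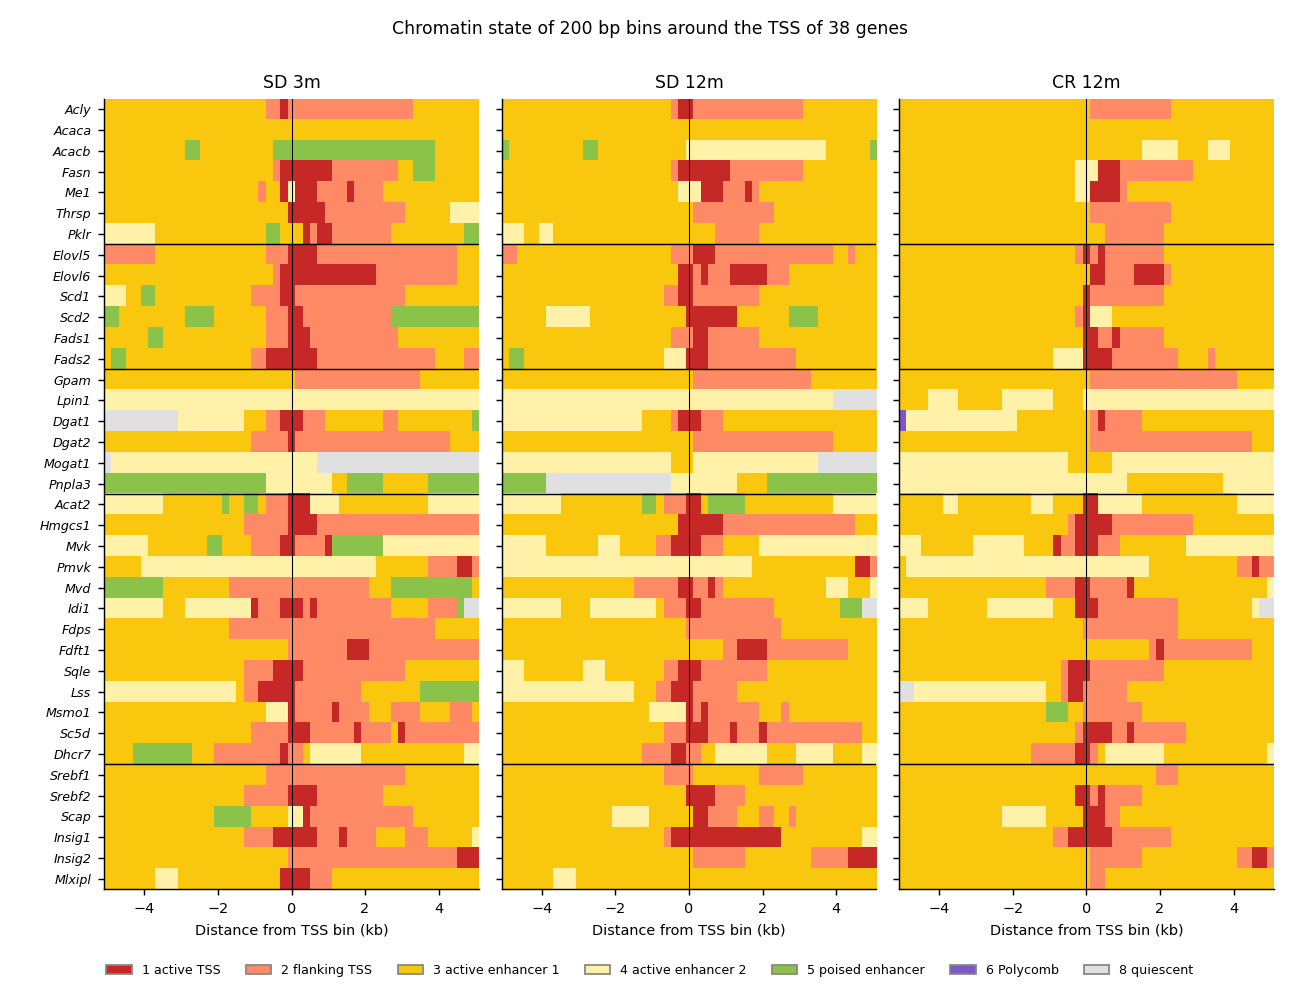
Chromatin state (colour) of 200 bp bins from 5 kb before to 5 kb after the TSS bin (x axis, kb) of the 38 genes (rows, grouped by role with black lines), 1 panel per group. Red and orange bins, states 1 and 2, cover the TSS bin of 28, 23 and 19 genes, and 6 genes have none of them within 2 kb in any map.

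Between maps, 12 of the 38 TSS bins carried another state at 12 months on the standard diet than at 3 months, where the share over all genes was 32.6% and over the H3K4me3-marked genes 30.3%. Between CR 12m and SD 3m the count was 17 (34.7% and 37.9%), and between CR 12m and SD 12m it was 12 (26.7% and 28.1%). These comparisons share maps in pairs and are not independent. The TSS bin was no longer in state 1 or 2 at 5 genes in SD 12m against SD 3m, where this was so at 6.6% of all genes and 13.6% of the H3K4me3-marked genes. They were Thrsp, Dgat2, Fdft1, Insig2 and Mlxipl. It was so at 10 genes in CR 12m against SD 3m, beside 10.4% of all genes and 21.4% of the marked genes. These were the same 5 and Acly, Fasn, Elovl6, Dgat1 and Srebf1. The opposite step was seen once, at Scap in CR 12m, and at no gene in SD 12m against SD 3m (1.02% and 1.24% of all genes). In CR 12m against SD 12m, 5 genes left states 1 and 2 (5.93% of all genes, 12.2% of the marked ones) and Scap entered them (1.92% of all genes). The state of the TSS bin was the same in all 3 maps at 19 of the 38 genes, where 55.4% of all genes kept theirs. A set of 38 other genes of the same pathways had 33, 29 and 22 TSS bins in state 1 or 2 in SD 3m, SD 12m and CR 12m, and 30 genes of fatty acid oxidation and ketogenesis had 25, 25 and 24. Of these 30, 1 left states 1 and 2 in SD 12m and 3 in CR 12m against SD 3m, values set side by side with no test of the difference.

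Reference promoters were read from RefSeq (GRCm38.p6, the mm10 build of the maps) for 9 genes, to show the sequence under starts that behaved differently in the maps. Each is the 250 bases before the start in the direction of transcription. Capitals mark letters searched on both strands: the sterol regulatory element TCACNCCAC, the E-box CACGTG, the CCAAT box, the GC box GGGCGG and the TATA box TATAAA. The words CACGGG and CCCGTG spaced by 5 bases, known as the carbohydrate response element of the liver pyruvate kinase gene, was added after the sequences were seen. Over all 32851 promoters in the table, these were found in 1.05%, 6.02%, 33.8%, 32.7%, 12.4% and, for the spaced pair, 1 promoter, that of Pklr. The starts of Fasn (chr11:120824548-120824797, minus strand), Thrsp (chr7:97417551-97417800, minus strand) and Mlxipl (chr5:135089640-135089889, plus strand) are shown because their TSS bin left states 1 and 2. The start of Pklr (chr3:89136373-89136622, plus strand) is its downstream one and was chosen after its values were seen. Those of Srebf2 (chr15:82147019-82147268, plus strand), Insig1 (chr5:28071162-28071411, plus strand) and Hmgcs1 (chr13:119690101-119690350, plus strand) stayed in state 1 in all 3 maps. Those of Mogat1 (chr1:78510810-78511059, plus strand) and Pnpla3 (chr15:84167566-84167815, plus strand) were in enhancer states in all 3.
Fasn: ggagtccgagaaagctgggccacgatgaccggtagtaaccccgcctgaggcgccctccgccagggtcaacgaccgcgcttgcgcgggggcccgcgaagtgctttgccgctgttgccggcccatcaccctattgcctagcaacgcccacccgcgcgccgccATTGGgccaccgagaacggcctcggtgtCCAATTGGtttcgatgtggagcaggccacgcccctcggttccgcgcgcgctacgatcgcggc
Thrsp: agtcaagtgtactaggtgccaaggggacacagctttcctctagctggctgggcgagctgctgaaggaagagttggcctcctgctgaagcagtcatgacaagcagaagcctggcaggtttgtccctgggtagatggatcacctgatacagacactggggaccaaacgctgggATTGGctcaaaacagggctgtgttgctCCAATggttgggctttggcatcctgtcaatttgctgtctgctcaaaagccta
Pklr: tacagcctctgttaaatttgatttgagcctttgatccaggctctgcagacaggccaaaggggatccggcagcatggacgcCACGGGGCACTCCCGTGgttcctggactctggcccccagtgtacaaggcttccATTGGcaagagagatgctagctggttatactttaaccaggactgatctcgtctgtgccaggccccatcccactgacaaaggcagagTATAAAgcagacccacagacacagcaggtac
Mlxipl: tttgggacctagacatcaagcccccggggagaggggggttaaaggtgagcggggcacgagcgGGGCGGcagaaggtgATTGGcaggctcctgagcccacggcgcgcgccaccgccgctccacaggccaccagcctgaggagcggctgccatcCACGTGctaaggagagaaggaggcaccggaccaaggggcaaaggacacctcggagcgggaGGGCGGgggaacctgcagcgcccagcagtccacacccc
Srebf2: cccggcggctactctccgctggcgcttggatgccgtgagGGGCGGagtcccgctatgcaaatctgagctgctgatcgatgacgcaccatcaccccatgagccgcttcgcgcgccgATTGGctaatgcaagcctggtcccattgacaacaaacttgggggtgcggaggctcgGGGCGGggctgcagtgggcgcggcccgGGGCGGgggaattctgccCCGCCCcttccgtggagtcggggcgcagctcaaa
Insig1: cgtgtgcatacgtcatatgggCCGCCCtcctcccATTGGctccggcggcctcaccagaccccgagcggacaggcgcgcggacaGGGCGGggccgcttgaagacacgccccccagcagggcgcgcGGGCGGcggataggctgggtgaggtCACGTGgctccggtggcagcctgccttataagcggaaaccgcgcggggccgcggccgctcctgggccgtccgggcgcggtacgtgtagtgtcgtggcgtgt
Hmgcs1: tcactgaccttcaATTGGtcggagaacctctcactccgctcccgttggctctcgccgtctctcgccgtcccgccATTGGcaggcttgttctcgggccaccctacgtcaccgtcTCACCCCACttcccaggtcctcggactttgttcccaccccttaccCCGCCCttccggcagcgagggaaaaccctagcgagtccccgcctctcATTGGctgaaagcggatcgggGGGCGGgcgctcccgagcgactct
Mogat1: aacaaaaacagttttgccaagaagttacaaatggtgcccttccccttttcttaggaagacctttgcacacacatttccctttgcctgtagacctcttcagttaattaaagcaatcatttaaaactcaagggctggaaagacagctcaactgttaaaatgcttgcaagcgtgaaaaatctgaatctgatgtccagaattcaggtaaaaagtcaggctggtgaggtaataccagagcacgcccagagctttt
Pnpla3: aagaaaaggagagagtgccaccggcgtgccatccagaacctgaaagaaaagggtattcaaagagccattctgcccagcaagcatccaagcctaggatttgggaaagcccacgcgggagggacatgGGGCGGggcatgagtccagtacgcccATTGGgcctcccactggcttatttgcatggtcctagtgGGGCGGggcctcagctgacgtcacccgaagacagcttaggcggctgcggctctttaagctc

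The sequences differ in base composition as well as in these letters. The Mogat1 window holds 2 CpG dinucleotides and 41.2% G and C, and the Thrsp window also holds 2 CpG, with 53.6% G and C. The 3 starts that stayed in state 1 hold 25 (Srebf2), 34 (Insig1) and 23 CpG (Hmgcs1), and Fasn, whose TSS bin was in state 4 in CR 12m, holds 33. Pnpla3 holds 11 and Mlxipl 18. The median over all promoters was 6 CpG. Among the 9, only the Hmgcs1 window holds an exact match to the sterol element, whose first base lies 137 bases before the start. Only Mlxipl and Insig1 hold the E-box, 98 and 101 bases before it. Near matches were not searched. The Srebf2 window holds tcaccccat, which differs from the sterol word in its last letter. The spaced pair of Pklr begins 170 bases before its downstream start, and its TATA box 31 bases before it. Promoters were in the table for 30 of the 38 genes, or 78.9%, too few for a check of sequence over the whole set, which is void. No entry was used for Scd1, Scd2, Fads1, Dgat1, Dgat2, Fdps, Fdft1 and Sqle. A match is a string of letters and not a measured binding site.

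Among the 7 genes of fatty acid synthesis, the outermost start was in state 1 or 2 at 3, 2 and 0 genes. The order is SD 3m, SD 12m and CR 12m, and the downstream start of Pklr, described below, is not counted. Fasn, fatty acid synthase (chr11:120805958-120824547, minus strand), was in state 1 at the TSS in SD 3m and SD 12m and in state 4 in CR 12m. It had 13 of 21 bins in states 1 and 2 within 2 kb in both standard-diet maps and 9 in CR 12m. In the CR 12m map the H3K4me3 states began 400 bp after the TSS bin edge, and the 3 bins before that were in state 4. Acly, ATP citrate lyase, was in state 2, state 1 and state 3 at the TSS in SD 3m, SD 12m and CR 12m, with 14, 13 and 10 bins. Thrsp, which encodes the lipogenic regulator SPOT14, was in state 1 in SD 3m and in state 3 in both 12-month maps. Its count of bins was nearly equal, 11, 10 and 10, and the H3K4me3 states began 200 bp further into the gene in both 12-month maps. Fasn, Acly and Thrsp were the 3 genes of this branch whose outermost start was in state 1 or 2 in any map, and at none of these 3 starts was it so in CR 12m.

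The other 4 genes of the branch had enhancer states at the outermost start in every map. Acaca and Acacb, the acetyl-CoA carboxylases, had 0 bins in states 1 and 2 within 2 kb in every group. All 21 bins of Acaca were in state 3 in all 3 maps, while Acacb was in states 5, 4 and 3 at the TSS. Me1, the cytosolic malic enzyme that supplies NADPH, was in state 4 at the TSS in all 3 maps with 12, 8 and 5 bins of states 1 and 2 beside it. The start of another gene, A330041J22Rik, lies within 2 kb of that of Me1. Pklr, the pyruvate kinase of liver and red cells, was in state 3 at its upstream start in all 3 maps and had 9, 6 and 8 bins. Its downstream start, 481 bp into the gene, was in state 3 in SD 12m and in state 2 in the other maps.

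The elongation and desaturation genes kept the H3K4me3 states at the TSS almost throughout, in 6 of 6 genes in SD 3m and SD 12m and in 5 of 6 in CR 12m. Scd1 and Scd2, stearoyl-CoA desaturases that make monounsaturated fatty acids, and Fads2, a desaturase of polyunsaturated fatty acids, were in state 1 in all 3 maps. Elovl5, an elongase of polyunsaturated chains, and Fads1, the partner desaturase of Fads2, were in state 2 in SD 12m and in state 1 in the other maps. Elovl6, the elongase of saturated and monounsaturated chains, was the exception, in state 1 in SD 3m and SD 12m and in state 3 in CR 12m, with 13, 12 and 10 bins within 2 kb. Another gene start, Gm35986, lies in its window. The width of the domain differed more than the state of the start. Scd2 (chr19:44293676-44306864, plus strand) had 14, 7 and 2 bins in states 1 and 2, the second largest difference between CR 12m and SD 3m among the 38. Scd1, 114 kb from Scd2, had 16, 13 and 11 bins, Fads2 had 16, 11 and 11, Fads1 had 14, 12 and 11, and Elovl5 had 14, 13 and 12.

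Among the 6 genes of triglyceride assembly and lipid droplets, the outermost start was in state 1 or 2 at 2, 1 and 0 genes. Gpam and Lpin1 each have a downstream start, not counted here, that was in state 1 in all 3 maps. Dgat2 and Dgat1 encode unrelated enzymes for the last step of triglyceride synthesis. Dgat2 was in state 1 in SD 3m and in state 3 in both 12-month maps, with 16, 10 and 10 bins in states 1 and 2. Dgat1 was in state 1 in SD 3m and SD 12m and in state 3 in CR 12m, with 8, 7 and 7 bins. Gpam, the mitochondrial acyltransferase that starts glycerolipid synthesis, had 10 bins in each map, all downstream of a TSS bin in state 3. Lpin1 (a phosphatidate phosphatase), Mogat1 (a monoacylglycerol acyltransferase) and Pnpla3 (a lipid droplet protein with lipase activity) had 0 bins in all 3 maps. Lpin1 and Pnpla3 were in state 4 at the TSS in each map. Mogat1 was in state 4 in SD 3m and in state 3 in SD 12m and CR 12m. Within 2 kb of its start, 7 of 21 bins were in state 8 in SD 3m and 0 in both 12-month maps.

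The mevalonate and sterol genes were in state 1 or 2 at the outermost start in 12 of 13 cases in SD 3m and in 11 in both 12-month maps. The early enzymes Acat2 (acetoacetyl-CoA thiolase), Hmgcs1 (HMG-CoA synthase) and Mvk (mevalonate kinase) were in state 1 in all 3 maps, as were Idi1 (isopentenyl diphosphate isomerase), Sqle (squalene epoxidase) and Sc5d (a late sterol desaturase). Fdps, farnesyl diphosphate synthase, was in state 2 in all 3. Mvd, mevalonate diphosphate decarboxylase, was in state 2 in SD 3m and in state 1 in both 12-month maps. Lss (lanosterol synthase) and Msmo1 (a sterol demethylase) were in state 1, state 1 and state 2 in SD 3m, SD 12m and CR 12m. Dhcr7, the reductase of the last step of cholesterol synthesis, was in state 2, state 2 and state 1. Fdft1, squalene synthase, was the gene of this group that left the H3K4me3 states at the TSS, with state 2 in SD 3m and state 3 in both 12-month maps. Pmvk, phosphomevalonate kinase, was in state 4 at its outermost start in all 3 maps.

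The highest counts of H3K4me3 bins within 2 kb in SD 3m were in this group and among the regulators. The unbroken run of states 1 and 2 at or nearest the TSS can extend past 2 kb. In SD 3m it was longest at Fdft1 and Insig2, 7200 bp each, and was 3800 bp at Mvd. Mvd (chr8:122433596-122443422, minus strand) and Fdps each had 19 of 21 bins in states 1 and 2 in SD 3m. Mvd then had 12 and 12 bins in SD 12m and CR 12m, and Fdps had 11 and 11. Hmgcs1 had 17, 12 and 13 bins, and Sqle had 17, 14 and 14. Fdft1 had 11, 6 and 2 bins, less in each map than in the one before. Lss had 16, 11 and 9 bins, Idi1 had 16, 14 and 12, and Sc5d had 16, 14 and 12. Dhcr7 (12, 8 and 9), Msmo1 (11, 10 and 8), Mvk (11, 9 and 9) and Acat2 (6, 5 and 2) had smaller domains, and Pmvk had 0 in all 3 maps. The windows of Mvk, Mvd and Dhcr7 also hold the start of Mmab, 9330133O14Rik and Nadsyn1.

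The regulators were in state 1 or 2 at the outermost start in 5 of 6 cases in SD 3m and in 3 in both 12-month maps. Insig2 and Mlxipl each have a downstream start, not counted here, that was in state 1 in all 3 maps. Srebf2, the SREBP that favours sterol genes, and Insig1, which retains SCAP in the endoplasmic reticulum, were in state 1 in all 3 maps. Srebf2 had 17, 8 and 9 bins in states 1 and 2, and Insig1 had 17, 14 and 15, which was the largest count in CR 12m among the 38 genes. Srebf1, the SREBP that favours fatty acid genes (chr11:60199084-60222581, minus strand), was in state 2 in SD 3m and SD 12m and in state 3 in CR 12m. Its count was 14, 5 and 1 bins, the largest difference between CR 12m and SD 3m among the 38. Mlxipl encodes ChREBP, and the start used here is the upstream one, where the shorter beta form is known to begin. It was in state 1 in SD 3m and in state 3 in both 12-month maps, with 7, 0 and 2 bins. Insig2, the paralog of Insig1, was in state 2 in SD 3m and state 3 in both 12-month maps, with 11, 7 and 7 bins. Scap was in states 4, 3 and 1 at the TSS, yet its count of bins was 9, 7 and 5, so that the start entered the H3K4me3 states in CR 12m while the domain was narrower.

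**Figure D2:**
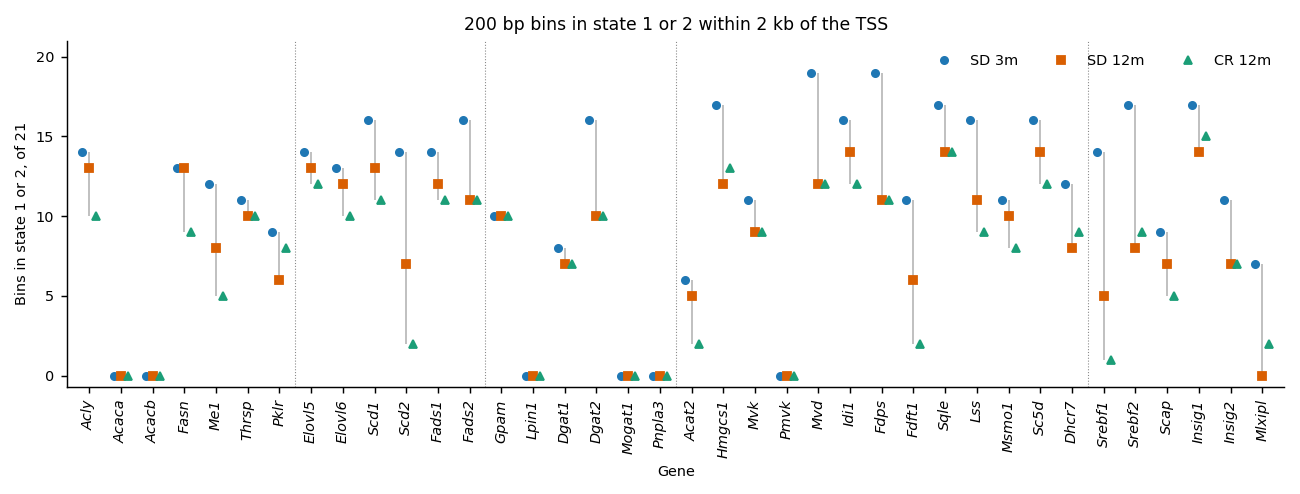
Number of 200 bp bins in state 1 or 2 among the 21 bins centred on the TSS bin (y axis) for each of the 38 genes (x axis, by role) in SD 3m (circles), SD 12m (squares) and CR 12m (triangles), 1 merged map per group with no error bars. Circles are highest or tied for every gene, and Srebf1 and Scd2 show the largest distances to CR 12m, from 14 to 1 and from 14 to 2 bins.

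Over the 38 genes the median count of bins in states 1 and 2 was 12.5, 9.5 and 9 of 21. No gene had more such bins in either 12-month map than in SD 3m. In SD 12m 30 genes had fewer and 8 the same number, and in CR 12m 31 had fewer and 7 the same. Of all genes, 42.1% had fewer in SD 12m and 44.1% in CR 12m. Of the H3K4me3-marked genes, 86.6% had fewer in SD 12m and 90.9% in CR 12m. Only 32 of the 38 genes belong to that set, and the 30 and 31 genes are all among them. Counts out of 38, here and below, are therefore not like for like with shares of the marked genes. Between the 12-month maps the counts were split, with 16 genes lower in CR 12m, 6 higher and 16 equal, beside 54%, 22% and 24% of the marked genes and 26.2%, 10.7% and 63.1% of all genes. The 6 higher in CR 12m were Pklr, Hmgcs1, Dhcr7, Srebf2, Insig1 and Mlxipl, each by 1 or 2 bins. With a difference of 5 bins or more counted as a call, 11 genes were lower in SD 12m than in SD 3m, beside 22.6% of all genes and 46.5% of the H3K4me3-marked genes. For CR 12m against SD 3m the count was 12, beside 27.2% and 56%, and for CR 12m against SD 12m it was 1, Scd2, beside 3.77% and 7.76%. With the same share of bins as the call, the first count was 1 in place of 11 within 5 kb of the start, and the last was 6 in place of 1 within 1 kb. None of the 38 was higher by 5 bins in any comparison, where 0.395%, 0.287% and 0.82% of all genes were. The unbroken run of states 1 and 2 at or nearest the TSS is not limited to 2 kb. Its median length over the 38 was 3400 bp in SD 3m, 2100 bp in SD 12m and 1800 bp in CR 12m. Over the H3K4me3-marked genes it was 2800, 1600 and 1400 bp. At single genes the run was longer than in SD 3m. In SD 12m it was 5400 against 3800 bp at Sc5d and 3600 against 3400 bp at Fasn. In CR 12m it was 4000 against 3400 bp at Gpam.

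Within 2 kb, the mean number of H3K4me3 bins over the 38 genes differed between SD 3m and the 12-month maps more upstream than downstream. The downstream count cannot pass 10 and misses any difference beyond 2 kb. At Elovl5 it was 10 in each map, while the unbroken run was 5200, 4400 and 2400 bp. These counts therefore do not show on which side the whole domain differed more. Of the 10 bins upstream of the TSS, the 38 genes had a mean of 3, 1.42 and 0.868 in states 1 and 2. Of the 10 bins downstream, the means were 7.47, 6.18 and 5.95. Over the H3K4me3-marked genes the means were 4.58, 2.51 and 2.10 upstream and 7.09, 4.87 and 4.37 downstream. The 6 regulators differed more downstream, with means of 9, 5.33 and 5.17 there and 2.67, 1 and 0.833 upstream. The 7 genes of fatty acid synthesis had means of 7, 6.29 and 6 downstream and 1, 0.571 and 0 upstream. For these 7, SD 12m also differed from SD 3m more downstream, and CR 12m differed equally on both sides. Genes with no such bin upstream numbered 13, 20 and 26 of the 38, or 34.2%, 52.6% and 68.4%, beside 18.4%, 37.3% and 45.9% of the marked genes and 60.4%, 69.5% and 73.8% of all genes. The 6 genes with no such bin within 2 kb in any map are part of each of these counts, and the marked set holds no such genes. The upstream 2 kb went from at least 1 such bin to none at 7 genes in SD 12m against SD 3m (10% of all genes, 20.7% of the marked ones), at 13 in CR 12m against SD 3m (14% and 28.9%) and at 8 in CR 12m against SD 12m (6.06% and 12.5%). In all 7 genes of fatty acid synthesis and all 6 of triglyceride assembly the upstream 2 kb held none in CR 12m, but at 4 of the 7 and 4 of the 6 it already held none in SD 3m, where the means were 1 and 1.33 bins. By comparison, the 13 mevalonate and sterol genes still had a mean of 2 bins there, from 4.77 in SD 3m. Within 2 kb, the domain was already asymmetric in SD 3m at 29 of the 38 genes, with more bins downstream than upstream. It was so at 65.5% of the H3K4me3-marked genes and 31.8% of all genes.

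**Figure D3:**
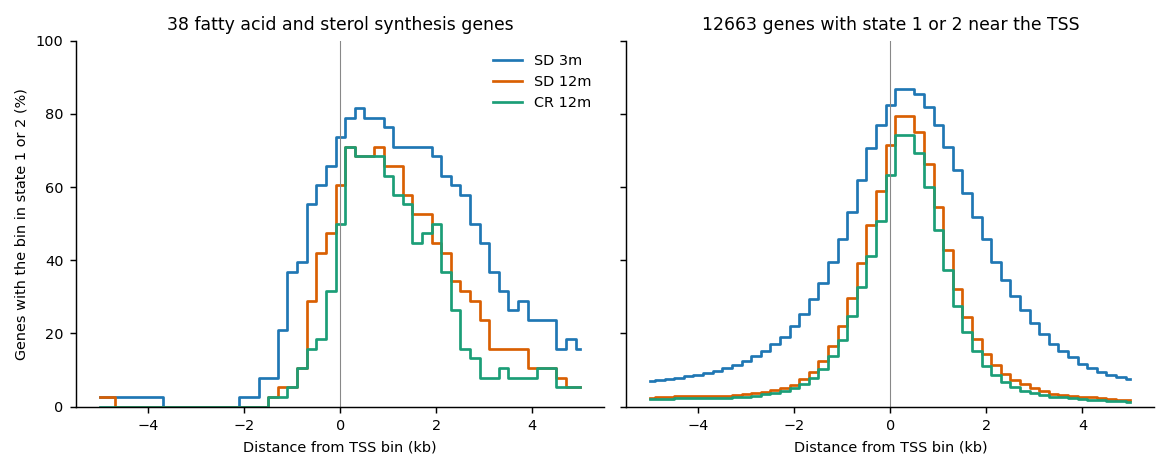
Percent of genes whose bin is in state 1 or 2 (y axis) by distance from the TSS bin in kb (x axis, negative upstream) for the 38 synthesis genes (left) and the 12663 H3K4me3-marked genes (right) in SD 3m, SD 12m and CR 12m. Among the 38, the bin 400 bp upstream was in these states at 23, 16 and 7 genes and the bin 400 bp downstream at 31, 26 and 26. At 400 bp the maps thus differ more before the start than after it, which does not stand for other distances.

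The chromatin that took the place of the H3K4me3 states within 2 kb was mostly state 3. Of 321 bins that the SD 3m map placed in state 2, the SD 12m map left 196 there and placed 100 in state 3 and 25 in state 1. In CR 12m, 180 of the 321 were in state 2, 124 in state 3, 13 in state 1 and 4 in state 4. The step from state 2 to state 3 thus took 31.2% of such bins by SD 12m and 38.6% by CR 12m, beside 42.1% and 49% over the marked genes. Of 105 bins in state 1 at 3 months, 70 were still so in SD 12m and 52 in CR 12m, and 9 and 15 were in state 3. The kept shares were 66.7% and 49.5%, beside 75.6% and 65.3% over the marked genes. Bins in state 3 in SD 3m scarcely changed, with 227 of 232 in the same state in SD 12m and 222 in CR 12m. Over the marked genes 84.0% and 86.7% kept state 3, but the 232 include bins of genes outside that set, such as Acaca. Few poised enhancer bins kept their state, as over the marked genes, where 19.8% did so to SD 12m and 10.7% to CR 12m. Of 39 in state 5 at 3 months, SD 12m kept 2 and CR 12m kept 0, while 12 and 21 were in state 3 and 18 and 18 in state 4. The other 7 in SD 12m were in state 8, at Pnpla3. The 7 quiescent bins of SD 3m, all at Mogat1, were in state 4 in both 12-month maps. State 3 differs from state 2 by the lack of H3K4me3, and state 4 from state 5 by H3K27ac in place of H3K4me1.

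No bin of the 38 genes was in state 6 or 7, within 2 kb of the TSS or in the gene body, in any of the 3 maps. Of all genes, 37.2% had such a bin in at least 1 map, and of the H3K4me3-marked genes 16.7% did. The 30 genes of fatty acid oxidation and ketogenesis and the 7 hepatocyte markers likewise had 0 such bins in each map. The Polycomb state covered 8.32%, 12.7% and 9.55% of the bins of all gene bodies, and state 7 covered 1.43%, 5.32% and 2.17%.

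The 38 gene bodies, 7041 bins in all from TSS to transcription end, were mostly in enhancer states, and more so in the 12-month maps. States 3 to 5 held 74.9%, 79.0% and 86.9% of the bins in the order of groups above. Their shares were 34.7%, 35.5% and 36.5% over all gene bodies and 57.4%, 58.9% and 60.7% over those of the H3K4me3-marked genes. In the 38 bodies, state 3 alone held 42.9%, 49.3% and 55.7%, and state 5 held 8.92%, 5.13% and 3.59%. States 1 and 2 held 9.47%, 6.15% and 5.34%. Quiescent state 8 held 15.6%, 14.8% and 7.80%, so that its share in CR 12m was about 8 points below SD 3m. Over all genes it was 52.6%, 44.8% and 50.4%, and over the marked genes 33.7%, 34.7% and 33.9%. The bodies of the 30 fatty acid oxidation and ketogenesis genes had 20.5%, 18.3% and 7%, and those of the 7 hepatocyte markers 8.76%, 6.91% and 3.13%, so the share was lower under caloric restriction in these lists too. The whole body lay in states 1 to 5 at 21, 22 and 29 genes, beside 47.9%, 54.1% and 58.9% of the marked genes and 29.7%, 34.1% and 37.1% of all genes. Against SD 3m, the share of the body in states 1 to 5 was higher in SD 12m at 11 genes and lower at 5, Acacb, Me1, Lpin1, Pnpla3 and Insig2 (20.7% higher and 18.4% lower over all genes, 27.4% and 24.3% over the marked genes). In CR 12m it was higher at 16 genes and lower at 0, where 23.3% of all genes had a higher and 16.4% a lower share (31.0% and 20.6% of the marked genes). Against SD 12m, it was higher in CR 12m at 14 genes and lower at 0 (19.5% and 13.6% of all genes, 26.8% and 16.8% of the marked genes).

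**Figure D4:**
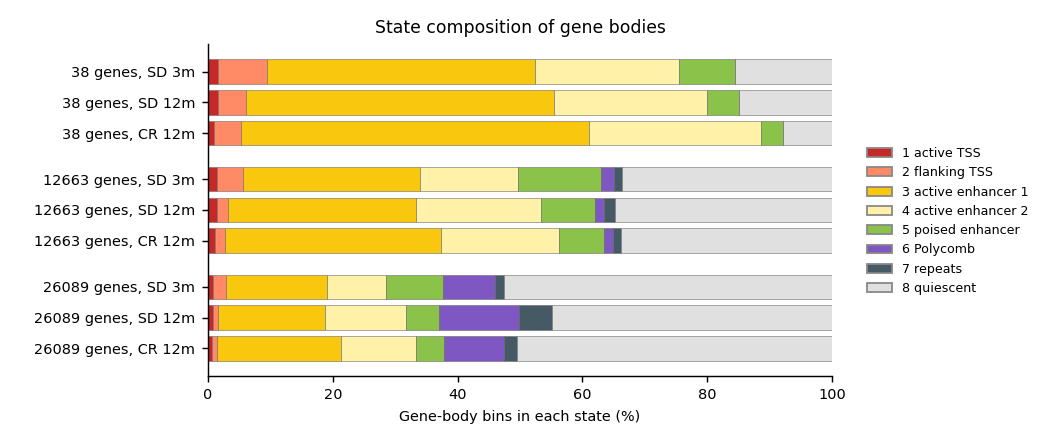
Percent of gene-body bins in each of the 8 states (x axis, stacked to 100) for the 38 synthesis genes, the 12663 H3K4me3-marked genes and all 26089 genes in each of the 3 group maps. The 38 genes hold no bin in state 6 or 7, and their grey part, state 8, is 15.6%, 14.8% and 7.80%.

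With a difference of 10 percentage points counted as a call, the share of the gene body in states 1 to 5 was higher at 4 genes (10.6% of all genes) and lower at 2 (7.6%) when SD 12m was set against SD 3m. In CR 12m against SD 3m it was higher at 9 genes (13.6%) and lower at 0 (7.59%), and in CR 12m against SD 12m higher at 6 (8.57%) and lower at 0 (4.85%). Among the 30 genes of fatty acid oxidation and ketogenesis the higher counts were 3, 11 and 10 in the same order of comparisons. The most frequent state of the body differed at 11 of the 38 genes in SD 12m against SD 3m (30.2% of all genes), at 10 in CR 12m against SD 3m (29.9%) and at 6 in CR 12m against SD 12m (20.4%).

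By the difference in state composition, taken as the largest of the 3 comparisons, the gene bodies that differed most were those of Scd2, Lss, Mvd, Fasn and Pnpla3. In Fasn, a stretch of 10000 bp from 7400 to 17400 bp after the start was in state 8 in SD 3m, or 53.2% of the body, and state 8 was at 0 in both 12-month maps. In SD 12m 36.2% of the Fasn body was in state 4 and 37.2% in state 3, and in CR 12m state 3 held 70.2%. In Lss (chr10:76531605-76557139, plus strand) state 8 ran for 17800 bp at 3 months and 15600 bp at 12 months on the standard diet, and in CR 12m the gene held none of it but 18200 bp of state 4. The share of the Lss body in states 1 to 5 was 30.5%, 39.1% and 100%. Scd2 and Mvd lay wholly in states 1 to 5 in every map and exchanged poised for active enhancer labels. State 5 held 79.1%, 5.97% and 58.2% of the Scd2 body, with 61.2% in state 4 in SD 12m. State 5 held 64.7% of the Mvd body in SD 3m and 0 in both 12-month maps, where state 4 held 51.0%. Pnpla3 (chr15:84167816-84189521, plus strand) went the other way in SD 12m, with 31.2% of its body in state 8 there and none in SD 3m or CR 12m, where state 4 held 80.7%.

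**Figure D5:**
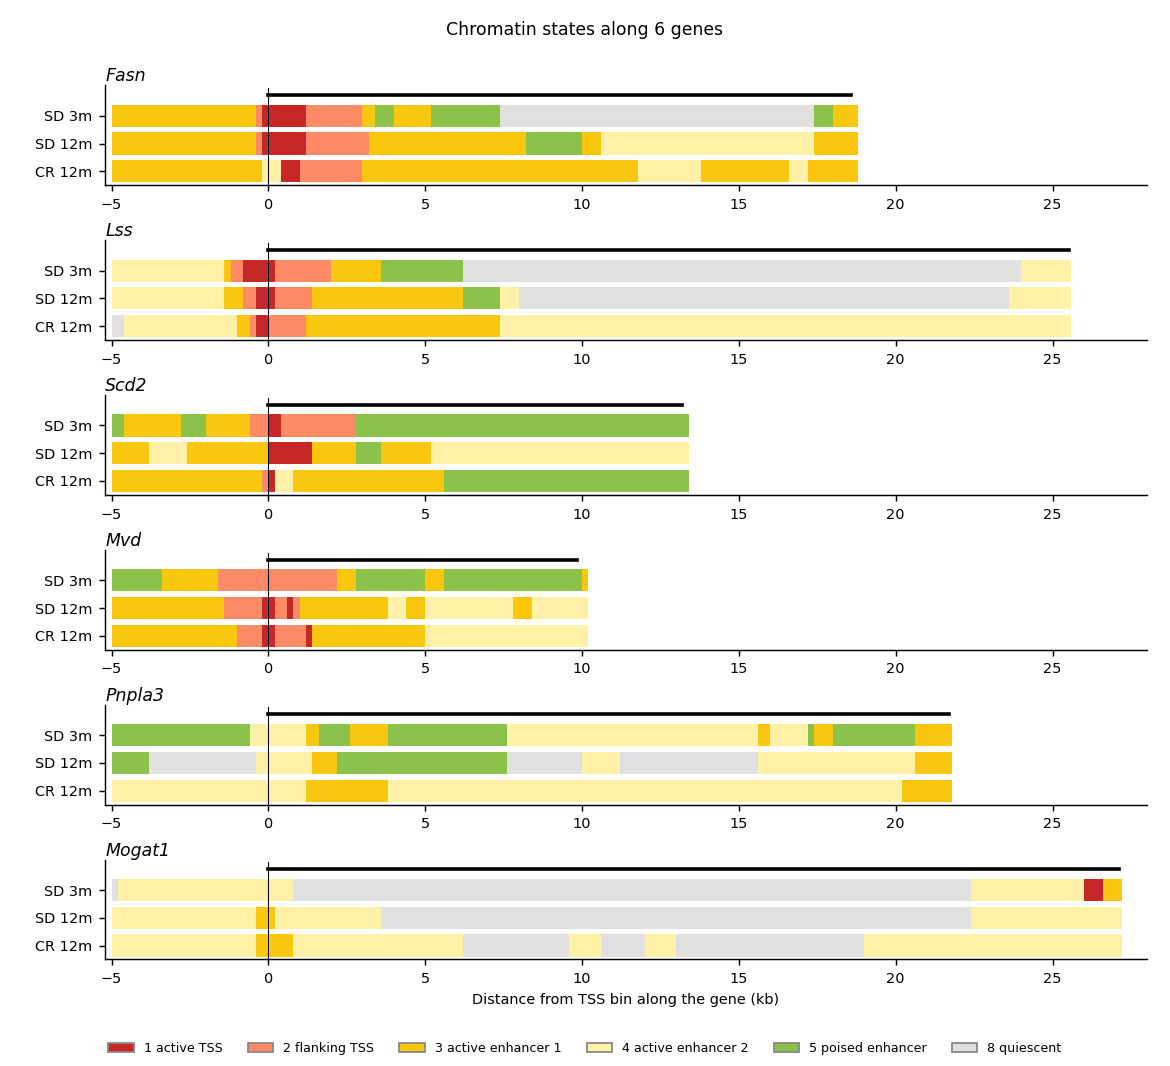
Chromatin states (colour) from 5 kb before the TSS bin to the end of the gene (x axis, kb along the gene, black bar for the transcript) for Fasn, Lss, Scd2, Mvd, Pnpla3 and Mogat1 in SD 3m, SD 12m and CR 12m. The grey state 8 stretches of Fasn (10000 bp in SD 3m) and Lss (17800 bp in SD 3m, 15600 bp in SD 12m) are absent from the Lss and Fasn rows of CR 12m.

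Other genes also differed in the extent of state 8. In Mogat1 (chr1:78511060-78538173, plus strand) the share of the body in states 1 to 5 was 20.6%, 30.9% and 60.3%. In Lpin1 it was 68.7%, 51.7% and 80.1%, and in Dhcr7 76.6%, 84.4% and 100%. Srebf2 had 80.3%, 94.5% and 100%, and Msmo1 82.1%, 91.0% and 100%. Acacb and Mvk were mostly quiescent in each map, with 24.1%, 23.4% and 34.7% of the Acacb body and 34.1%, 34.1% and 36.6% of the Mvk body in states 1 to 5. Idi1 had 70.6% in each map.

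Where a gene has more than 1 curated start, the outermost one often differed in state from another. The 2 starts of Scap, 68 bp apart, had the same states. Lpin1 was in state 4 at its outermost start, but in state 1 in all 3 maps at the start 21.2 kb downstream. Pmvk was in state 1 in all 3 maps 4577 bp downstream, Gpam 27761 bp downstream, Insig2 4911 bp downstream and Mlxipl 17001 bp downstream of the starts described above. The downstream Mlxipl start is that of the longer alpha form. Srebf1 was in state 2, state 3 and state 3 at the start 1954 bp downstream in SD 3m, SD 12m and CR 12m, and in state 2, state 1 and state 3 at the one 12110 bp downstream, so all 3 of its starts were in state 3 in CR 12m. Fdft1 was in state 1 in SD 3m and SD 12m and in state 3 in CR 12m at a start 1691 bp downstream. Taking the lowest state number over all starts of a gene, 84.2%, 76.3% and 65.8% of the 38 genes were in state 1 or 2 in SD 3m, SD 12m and CR 12m.

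Some of the 38 genes lie near each other, and their maps are not independent. Pklr and Fdps start 34.2 kb apart, Fads1 and Fads2 81.4 kb, Scd1 and Scd2 114 kb, Acacb and Mvk 278.8 kb, and Pklr and Pmvk 318.4 kb. Genes close together could differ at the start: Pklr was in state 3, Fdps in state 2 and Pmvk in state 4 in all 3 maps, while Acacb was in states 5, 4 and 3 and Mvk in state 1 throughout.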

How the data were processed

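The study profiled 4 histone marks by ChIP-seq in FFPE mouse livers, 108 libraries of 31 mice. According to the methods, the authors aligned reads to mm10 with BWA 0.6.2-r126, filtered them with SAMtools 0.1.18, removed duplicates, merged replicates and learned 8 states with ChromHMM. The deposited files hold no counts but a state label for each stretch of 200 bp bins, 1 map per group, with no read depth.

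Starts and ends came from curated RefSeq (GRCm38.p6), with the longest transcript per gene. From the labels were computed the state of the TSS bin, the 21 bins around it, the unbroken run of states 1 and 2 and the gene-body composition, in Python 3.11.15 (numpy 2.4.6, pandas 2.3.3, scipy 1.17.1). Counts are given beside all 26089 genes. The code was tested on a simulated chromosome 19, where 200 of 200 altered starts among 635 were recovered. The labels were altered without noise, so this checks the code and not the state calls. Named genes were those with a change of class at the start and the 5 largest or smallest counts of H3K4me3 bins within 2 kb. The 5 largest differences in that count and the 5 most different bodies were also named. The members and lists were chosen with earlier results of these data known. Alternatives were other starts, windows, state classes and smoothing.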

Additional observations from a re-analysis of the deposited data

How the results depend on the processing

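Of 78 values recomputed under other settings, 59 stayed within the limits used, the 95% Wilson interval of the share or 1.5 times the count or length, and 19 did not. No paired analysis was possible because each group is 1 merged map and no result comes from a test, and no replicate could be left out. Taking the lowest state over every curated start, 76.3% of the genes were in state 1 or 2 in SD 12m (65.8% in state 1), and for CR 12m the share was 65.8%. With stretches under 600 bp replaced by their neighbour, state 1 held 31.6% of the SD 12m and 21.1% of the CR 12m TSS bins. With states merged into 5 classes, the TSS bin differed at 5 genes in SD 12m and 11 in CR 12m against SD 3m and at 6 in CR 12m against SD 12m, and the most frequent body class at 3, 5 and 2 genes, since moves within a class no longer count. Within 5 kb of the start, the median share of bins in states 1 and 2 was 34.3% (SD 3m), 21.6% (SD 12m) and 19.6% (CR 12m), and 1 gene was lower by the call in SD 12m against SD 3m. Within 1 kb, 6 genes were lower in CR 12m than in SD 12m. With state 1 alone, the median run was 400, 400 and 200 bp. The order SD 3m, SD 12m, CR 12m of the shares in states 1 and 2 held in each of these settings. Merged maps of unknown depth set the precision, and no error across mice can be given.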
